A study of Mus musculus with 21 samples.

Results

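Accessible chromatin was examined around 10 genes that mark cells other than granule neuron precursors, out of 21883 protein-coding genes with a window on the annotation used. The genes mark astrocytes (Slc1a3 and Gfap), the oligodendrocyte lineage (Olig1, Olig2, Pdgfra and Mbp), microglia and other myeloid cells (Csf1r, Cx3cr1 and Irf8) and brain endothelium (Cldn5). They were chosen by name, and each was measured as the number of peak summits in its window, meaning the gene body and 20 kb on each side. Only the 100000 highest-scoring summits of each library, called kept summits here, were counted.

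The assay was Omni-ATAC, in which a transposase cuts open chromatin, applied to 21 mouse libraries in 7 groups of 3. Primary cells were sorted for EGFP out of the cerebella of Atoh1-EGFP mice, a reporter of the granule neuron lineage. They were granule neuron progenitors (GNP) of postnatal day 7, titled Ptch1GNP, hyperplasia of postnatal day 28, titled PNC, and medulloblastoma tumors of unstated age. Beyond those titles and the word GEMM (a genetically engineered mouse model) in the design, no source used here states their genotype. The other 4 groups were VDR, a mouse medulloblastoma cell line, untreated or given a control siRNA (siNC), siNfia or siNfib, which are aimed at the nuclear factor I genes Nfia and Nfib. The labels speak of siRNA while names of the deposited lists carry sh, so the kind of knockdown reagent is uncertain, and summit counts do not check the knockdown. Stage cannot be told apart from age, and in comparisons with tumor it cannot be told apart from isolation either. GNP and hyperplasia cells passed a Percoll gradient, while tumor cells were released with trypsin and DNase. The labels do not say that replicates came from separate animals or cultures, so p-values measure only the spread between these libraries, which may be technical.

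In the cerebellum, Atoh1-expressing precursors give rise to granule neurons, and Hedgehog-driven medulloblastoma grows from that lineage. Bergmann glia and astrocytes express the glutamate transporter gene Slc1a3 and, as they mature or react, the filament gene Gfap. Oligodendrocyte precursors depend on the helix-loop-helix factors Olig1 and Olig2, carry the PDGF receptor Pdgfra and later make myelin basic protein from Mbp. Several of these genes, Olig2 among them, are also used by neural progenitors and brain tumor cells, so an open site near one of them does not name a cell type.

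A few transcription starts are shown because their occupancy separates the members. They are the 250 bases before the start, 5′ to 3′ on the strand of the gene, from RefSeq promoter sequences of GRCm38.p6, the mm10 assembly. The table held 7 of the 10 members. Capitals mark matches on either strand to a few words. TTGGCA is the short form of a nuclear factor I site, and its palindromic full form was searched as well. CAGCTG and the related word CAGATG are E-boxes, the sites of helix-loop-helix factors. GAGGAAGT is a site of the myeloid factor PU.1. With 1 match in the stretches shown, no words overlapped there.
Olig2, chr16:91225300-91225549, plus strand: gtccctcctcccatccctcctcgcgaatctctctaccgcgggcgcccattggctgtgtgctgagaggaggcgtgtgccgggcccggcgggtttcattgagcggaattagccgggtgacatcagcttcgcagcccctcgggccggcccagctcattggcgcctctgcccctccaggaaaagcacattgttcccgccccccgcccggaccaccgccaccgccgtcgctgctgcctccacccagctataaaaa
Gfap, chr11:102897201-102897450, minus strand: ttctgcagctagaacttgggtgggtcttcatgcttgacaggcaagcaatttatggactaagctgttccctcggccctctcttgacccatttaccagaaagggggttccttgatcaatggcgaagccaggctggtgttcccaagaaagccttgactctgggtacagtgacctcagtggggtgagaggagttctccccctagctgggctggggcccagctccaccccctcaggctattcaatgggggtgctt
Slc1a3, chr15:8710808-8711057, minus strand: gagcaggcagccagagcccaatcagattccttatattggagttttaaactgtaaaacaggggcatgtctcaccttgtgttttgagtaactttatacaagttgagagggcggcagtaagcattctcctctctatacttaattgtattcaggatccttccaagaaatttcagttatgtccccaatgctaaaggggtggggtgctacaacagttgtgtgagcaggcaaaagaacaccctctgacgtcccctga
Irf8, chr8:120736108-120736357, plus strand: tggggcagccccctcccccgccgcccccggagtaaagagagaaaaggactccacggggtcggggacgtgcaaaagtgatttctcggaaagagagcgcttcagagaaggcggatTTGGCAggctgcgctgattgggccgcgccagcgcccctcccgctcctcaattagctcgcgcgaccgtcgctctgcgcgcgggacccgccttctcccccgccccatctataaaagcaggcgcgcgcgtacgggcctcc
Of these stretches, that of Irf8 held 1 TTGGCA, a word present in 12.3% of 32851 promoter stretches of that length, and the other stretches shown held none of the words. Among the stretches searched and not shown, that of Pdgfra held 1 CAGATG, that of Cx3cr1 held 1 CAGCTG and 1 CAGATG, and those of Cldn5 and of the other Irf8 start held none. Over those 32851 stretches the palindromic form occurred in 0.0365%, CAGCTG in 4271 of them, CAGATG in 14.4% and the PU.1 word in 2.44%. GC content was 66.8% at Olig2, 55.6% at Gfap, 44.8% at Slc1a3 and 67.2% at Irf8, with a median of 52.4% over all promoters.

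Untreated VDR libraries stood apart before any marker was considered. Their score at rank 100000 was 3.76 to 3.97, against 9.26 to 28.9 in primary libraries and 4.95 to 17.4 in siRNA-treated ones. After kept summits were merged into regions of 500 bp, 12.3% of the regions occupied in untreated VDR recurred in all 3 libraries, against 72.5% in GNP, 58.8% in hyperplasia, 63.9% in tumor and 48.2%, 50.3% and 63.6% with siNC, siNfia and siNfib. Kept summits were also spread differently over chromosomes in VDR cells. Chromosome 15 held 4.19% of them in tumor, 6.93% in untreated VDR and 6.32% with siNC. Chromosome 18 held 3.07%, 1.55% and 2.53%. In the same order, chromosome 16 (Olig1, Olig2 and Cldn5) held 3.32%, 1.77% and 2.815%. Chromosome 5 (Pdgfra) held 6.41%, 3.70% and 4.80%, and chromosome 11 (Gfap) 7.30%, 5.47% and 5.95%. Chromosome 9 (Cx3cr1) held 5.71%, 3.43% and 4.85%, and chromosome 8 (Irf8) 5.28%, 7.70% and 7.02%. All 13 genes of a granule lineage list, Atoh1 among them, had kept summits in every group. All 13 genes of an oligodendrocyte list had them in GNP, hyperplasia and tumor, and only 20.4% of all windows were empty in tumor. In primary cells presence alone does not set the granule lineage list apart. Its summed kept summits were higher, at 320 to 348 in tumor libraries. The sums there were 96 to 97 for the oligodendrocyte list and 80 to 103 for 12 astrocyte genes. They were 56 to 63 for 13 endothelial and mural genes and 47 to 49 for 13 immune genes. These sums were not scaled to window length. In a mixture, fewer cells of a type and less open chromatin per cell cannot be told apart.

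The start of Slc1a3 and the first of the 2 starts listed for Irf8 were open in all 21 libraries, the start of Olig2 in the 9 primary libraries and in no VDR library, and the start of Gfap mainly in tumor. A start counted as open when a kept summit lay within 500 bp of it. For Gfap this held in 0 of 3 GNP, 1 of 3 hyperplasia, 3 of 3 tumor and 1 of 3 untreated VDR libraries, and in 0 of 9 siRNA-treated libraries. In the whole lists, which include weaker summits, a summit lay at the Gfap start in all 9 primary libraries, so the stages differ there in rank and not in presence. The other Irf8 start had a kept summit in 1 of 21 libraries, an untreated VDR one, and a summit in the whole lists of 5. No kept summit lay at the starts of Pdgfra, Cx3cr1 or Cldn5. In the whole lists Cldn5 had one in 9 of 21 libraries, Pdgfra in 1 and Cx3cr1 in 0. For comparison, between 33.9% of all promoters (untreated VDR) and 44.0% (GNP) had a kept summit on average.

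**Figure D1:**
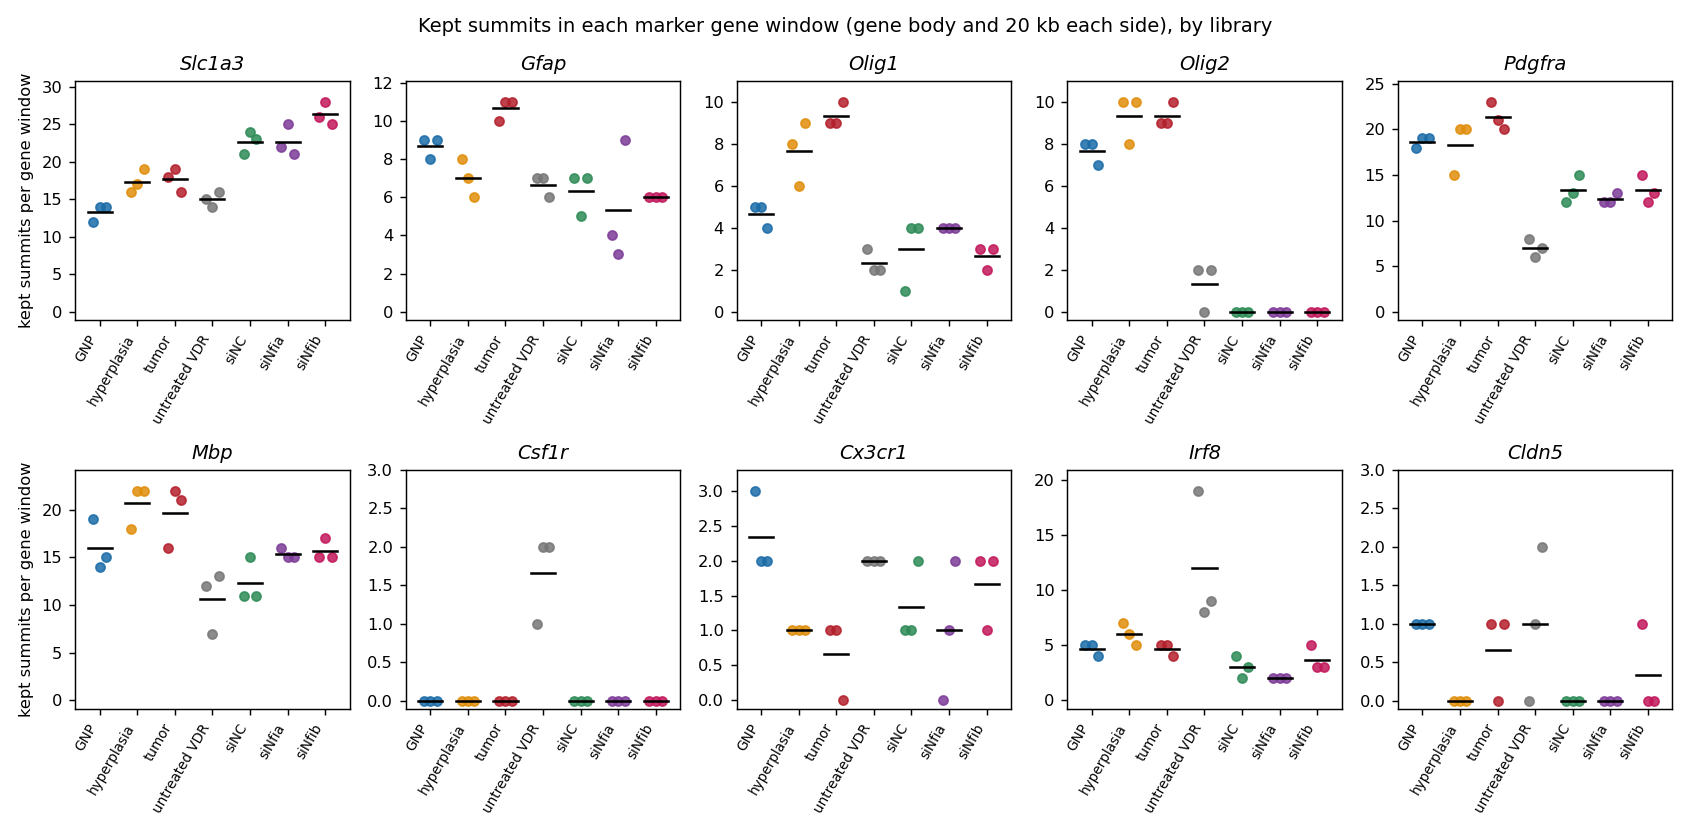
Kept summits in the window of each marker gene (vertical axis, summits per gene window) in the 3 libraries of each of 7 groups (horizontal axis); points are libraries and bars are group means. Olig2 lies between 7 and 10 in the primary libraries and at 0 in all siRNA-treated libraries, while Csf1r, Cx3cr1 and Cldn5 never exceed 3.

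Slc1a3 encodes the glial glutamate transporter GLAST. Its window held 12, 14 and 14 kept summits in GNP, 16, 17 and 19 in hyperplasia and 18, 19 and 16 in tumor. In VDR cells it held 15, 14 and 16 untreated, 21, 24 and 23 with siNC, 22, 25 and 21 with siNfia and 26, 28 and 25 with siNfib. Every hyperplasia and tumor library lay above every GNP library, and the siRNA-treated libraries lay above all others. In order of the mean the groups ran siNfib, siNC and siNfia together, tumor, hyperplasia, untreated VDR and GNP, and in that order siNfib stood clear of siNC and siNfia stood clear of tumor, while the other neighbours overlapped. The siNfib and siNfia libraries met at 25.

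Gfap encodes the intermediate filament of astrocytes. Its window held 9, 8 and 9 kept summits in GNP, 8, 7 and 6 in hyperplasia and 10, 11 and 11 in tumor, so that tumor stood above both other stages. VDR libraries held 7, 7 and 6 untreated, 7, 5 and 7 with siNC, 4, 3 and 9 with siNfia and 6, 6 and 6 with siNfib. Within the gene body alone the counts were 1, 1 and 1 in GNP, 1, 0 and 0 in hyperplasia, 3, 3 and 3 in tumor and 0 in all 9 siRNA-treated libraries. Of the 152 kept summits of this window over all libraries, 16 lay in Gfap itself and 60 lay within 1 kb of an end of a neighbouring gene, among them the splicing factor gene Eftud2. The site shared by all 21 libraries lay outside the gene, 1331 bp before its start (chr11:102898281-102898780), and its best rank in a library was 421.

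Olig1 and Olig2 lie side by side on chromosome 16, and their windows lie next to each other without overlapping. Olig2, which specifies oligodendrocyte and motor neuron precursors, held 8, 8 and 7 kept summits in GNP, 10, 8 and 10 in hyperplasia and 9, 9 and 10 in tumor. It held 2, 0 and 2 in untreated VDR and 0 in all 9 siRNA-treated libraries. Even in the whole lists, which hold 18 to 27 Olig2 summits in primary libraries, the siRNA-treated libraries had 0 in 8 of 9 and 1 in the other. Primary and VDR libraries did not overlap.

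Olig1, a partner of Olig2 in oligodendrocyte maturation, held 5, 5 and 4 kept summits in GNP, 8, 6 and 9 in hyperplasia and 9, 9 and 10 in tumor. In VDR cells it held 3, 2 and 2 untreated, 1, 4 and 4 with siNC, 4, 4 and 4 with siNfia and 3, 2 and 3 with siNfib. Unlike Olig2 it kept one site in all 21 libraries (chr16:91269417-91269916), centred 102 bp from the edge of the gene body. On the map of the locus, summits around Olig2 line up in the primary libraries, untreated VDR carries a few there that do not recur, and siRNA-treated VDR carries none. The cluster at Olig1 continues into VDR cells. Of the 4 regions occupied at Olig2 in untreated VDR, 0 recurred in all 3 libraries.

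**Figure D2:**
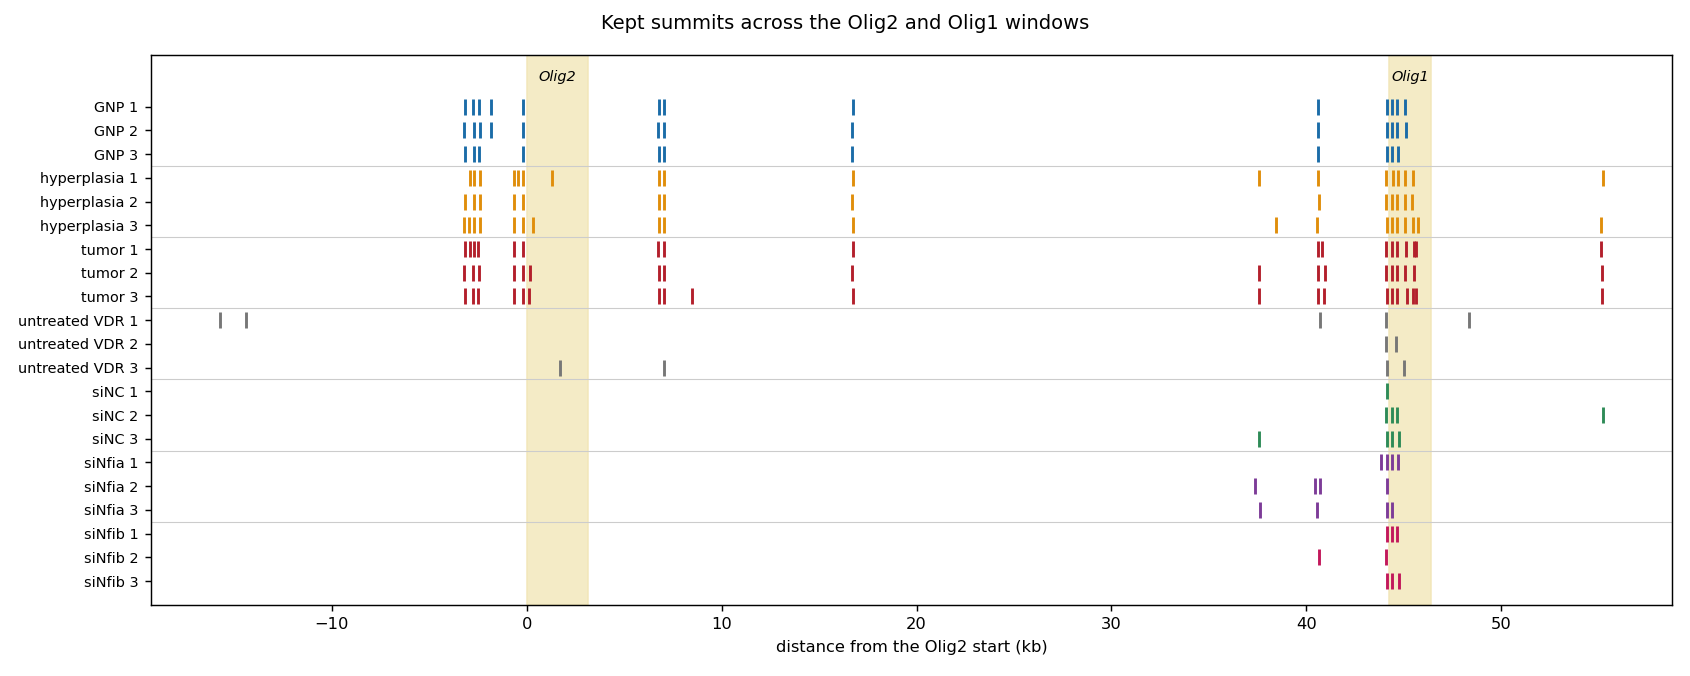
Kept summits in the joined Olig2 and Olig1 windows, 1 row per library, coloured by group; the horizontal axis is the distance from the Olig2 start in kb and shading marks the 2 gene bodies. Rows of siRNA-treated VDR cells carry no mark in the Olig2 window and 1 to 4 marks in the Olig1 window.

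Pdgfra, the receptor of oligodendrocyte precursors, had the most open window per length of the 10 genes in GNP and tumor, with 2.15 and 2.46 kept summits per 10 kb, where the median of all windows was 0.629 and 0.602. It held 18, 19 and 19 in GNP, 15, 20 and 20 in hyperplasia and 23, 21 and 20 in tumor. It held 8, 6 and 7 in untreated VDR, 12, 13 and 15 with siNC, 12, 12 and 13 with siNfia and 15, 12 and 13 with siNfib. Of its 313 kept summits over all libraries, 288 lay in the gene body. The strongest shared site lay 27650 bp inside the gene from its start (chr5:75179651-75180150, best rank 910, all 21 libraries).

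Mbp, the myelin gene, held 19, 14 and 15 kept summits in GNP, 18, 22 and 22 in hyperplasia and 16, 22 and 21 in tumor. It held 12, 7 and 13 in untreated VDR, 11, 15 and 11 with siNC, 16, 15 and 15 with siNfia and 15, 17 and 15 with siNfib. Adjacent groups in the order of means overlapped throughout. One site in the Mbp body (chr18:82518079-82518578) was occupied in all 21 libraries and reached rank 172, while another (chr18:82531810-82532309) was occupied in the 9 primary libraries and in no VDR library.

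Among the members, the microglial genes Csf1r and Cx3cr1 and the endothelial gene Cldn5 were close to empty. The wider lists described further on were not. In tumor libraries the 13 endothelial and mural genes held 56 to 63 kept summits together, and the 13 immune genes 47 to 49. Csf1r, the receptor on which microglia depend, had 0 kept summits in all libraries except the untreated VDR ones, with 1, 2 and 2. Its whole-list counts were 2 to 6 in primary libraries. Cx3cr1, the fractalkine receptor of microglia, had 3, 2 and 2 in GNP, 1, 1 and 1 in hyperplasia, 1, 1 and 0 in tumor, 2, 2 and 2 in untreated VDR and 0 to 2 in siRNA-treated libraries, and none lay in its gene body in any library. Cldn5, a tight junction gene of brain endothelium, had 0 to 2 in each library and none in its gene body, and 6 of its 9 kept summits over all libraries lay in the neighbouring gene Cdc45. About 20.4% of all gene windows had no kept summit in any tumor library, so an empty window is common.

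Irf8, an interferon regulatory factor of the myeloid lineage, was the exception among the immune members. Its window held 5, 5 and 4 kept summits in GNP, 7, 6 and 5 in hyperplasia, 5, 5 and 4 in tumor and 19, 8 and 9 in untreated VDR. It held 4, 2 and 3 with siNC, 2, 2 and 2 with siNfia and 5, 3 and 3 with siNfib. A site at its first start (chr8:120736025-120736524) was occupied in all 21 libraries. Untreated VDR libraries were above all others, but their summits were scattered: of 22 regions occupied there, 1 recurred in all 3 libraries and 17 were seen in 1 library only. In tumor 5 regions were occupied, 3 of them in all 3 libraries.

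**Figure D3:**
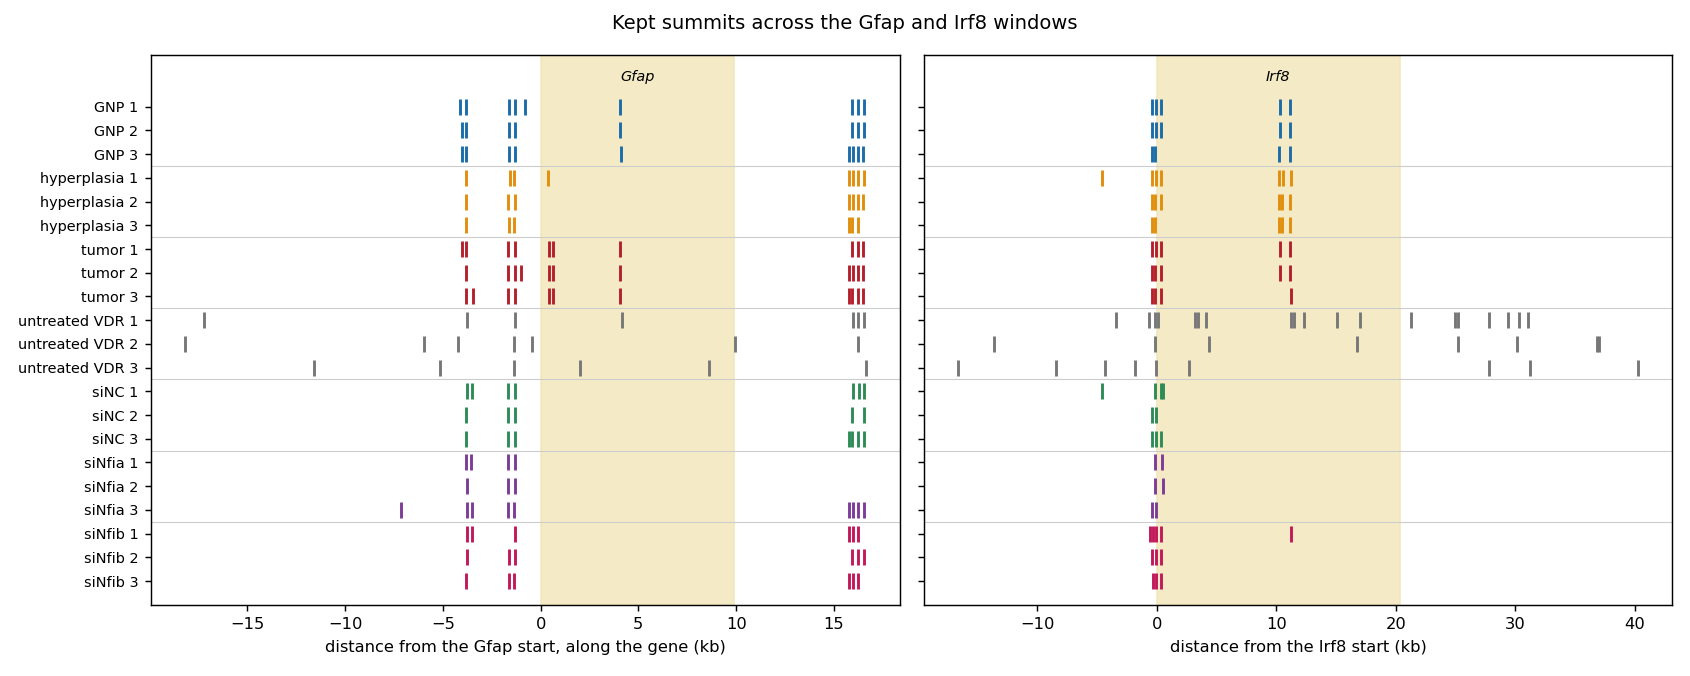
Kept summits in the Gfap and Irf8 windows, 1 row per library, coloured by group; the horizontal axes are distances from each start in kb along the gene and shading marks the gene body. The 3 tumor rows carry marks just inside the Gfap start, and the 3 untreated VDR rows carry scattered marks across Irf8 that seldom align with each other.

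To ask how the windows differed between groups, log2 of the kept summits plus 1 was tested with limma over all windows with a mean of at least 3, and a window was called at an adjusted p below 0.05. Fold sizes are on that log2 scale, which understates changes of low counts. Csf1r, Cx3cr1 and Cldn5 had means under 3 and entered no test, and neither did Olig2 and Irf8 in the siRNA comparisons. Olig1 and Olig2 entered the comparisons of VDR with tumor through their tumor libraries alone, since their 6 VDR libraries averaged 2.67 and 0.667. A difference there was built into their entry, and their values and calls in those comparisons are given as a description.

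Between the primary stages few marker windows passed the test. Of 7 members tested, 1 was called between tumor and GNP, where 6.24% of all windows were called. This was Olig1, higher in tumor by 0.87 (SE 0.15, adjusted p = 0.0147). The call was lost without GNP replicate 1, 2 or 3 or tumor replicate 3 (adjusted p = 0.0519, 0.0523, 0.0548 and 0.0508), and with 50000 summits per list (adjusted p = 0.0674), a score of at least 10 (adjusted p = 0.0797), 50 kb flanks (0.42, adjusted p = 0.0581) or whole lists (0.45, adjusted p = 0.222). It held in 11 of 19 alternatives. Slc1a3 was 0.38 higher (SE 0.10) and did not pass (adjusted p = 0.0569), with all tumor libraries above all GNP libraries, as was so for 8.39% of all windows. It passed with equal totals per chromosome (0.39, adjusted p = 0.0369).

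None of the 7 was called between hyperplasia and GNP, where 4.0% of all windows were called. At an unadjusted p below 0.05 there were 5 members, where 2959 of 14094 windows had such a p, and no other tool was run. Olig1 was 0.60 higher (SE 0.15, adjusted p = 0.0548) and Slc1a3 0.36 higher (SE 0.10, adjusted p = 0.0819), both with all hyperplasia libraries above all GNP libraries, as in 7.51% of all windows. None was called between tumor and hyperplasia either, with 0.192% of all windows called and 1 member at an unadjusted p below 0.05, as were 16.7% of all windows. That member was Gfap, 0.55 higher in tumor (SE 0.11, adjusted p = 0.0705), with all tumor libraries above all hyperplasia libraries, as in 5.51% of all windows. Without summits near the ends of neighbouring genes, a choice made after seeing the data, Gfap was 0.89 higher in tumor than in hyperplasia (adjusted p = 0.0299) and lower in hyperplasia than in GNP (log2 change -0.55, adjusted p = 0.033).

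**Figure D4:**
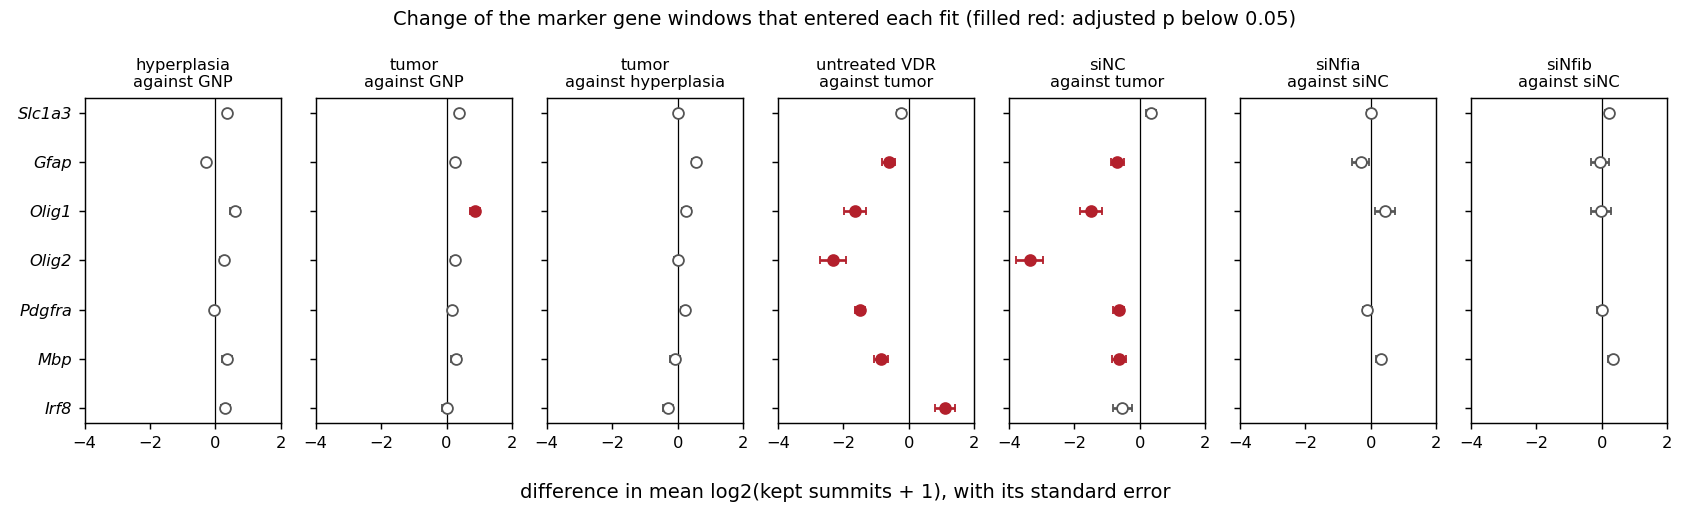
Difference in mean log2(kept summits + 1) for the marker windows that entered each of 7 comparisons, with its standard error where that is wider than the marker; filled red points had an adjusted p below 0.05. Stage comparisons hold 1 filled point, both comparisons of VDR with tumor hold 5 filled points below 0, and the siRNA comparisons hold none. Among those 5 points, Olig1 and Olig2 entered through tumor alone.

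Against tumor, the windows of Pdgfra, Mbp and Gfap were lower in VDR cells, both untreated and with siNC, and so were those of Olig1 and Olig2, whose entry required it. The wider oligodendrocyte list described further on moved in both directions. These 2 comparisons share the tumor libraries and are not independent. In untreated VDR 6 of 7 members were called, 5 lower and Irf8 higher, while 50.9% of all windows were called, 30.2% lower and 20.7% higher. The 5 lower ones include Olig1 and Olig2, so only the other members can be set beside those shares. Lower were Pdgfra (log2 change -1.49, SE 0.17, adjusted p = 5.51e-06), Olig1 (log2 change -1.64, SE 0.33, adjusted p = 0.000845) and Olig2 (log2 change -2.31, SE 0.41, adjusted p = 0.000328). Mbp (log2 change -0.85, adjusted p = 0.00471) and Gfap (log2 change -0.61, adjusted p = 0.0166) were also lower. Slc1a3 did not pass (log2 change -0.22, adjusted p = 0.202).

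Irf8 was 1.11 higher in untreated VDR (SE 0.30, adjusted p = 0.00644), with 12 ± 6.08 kept summits against 4.67 ± 0.577 in tumor (SD, n = 3). It was 0.84 higher and not called when occupied regions were counted (adjusted p = 0.0706). The call of Gfap held in 10 of 18 alternatives. It was lost without tumor replicate 2 or 3 (adjusted p = 0.0599 and 0.0579). It was also lost with 50000 summits (adjusted p = 0.24), whole lists (adjusted p = 0.208) or 50 kb flanks (adjusted p = 0.0909). Without summits near the ends of neighbouring genes it was lost too (log2 change -0.50, adjusted p = 0.0691). The chromosome totals bear on these values. With each chromosome scaled to the same total in every library, Mbp was 0.07 (adjusted p = 0.784), Gfap -0.24 (adjusted p = 0.339) and Irf8 0.64 (adjusted p = 0.105), while Pdgfra remained called at -0.76. Olig1 and Olig2, which entered the unscaled test through their tumor libraries alone, were at -0.94 and -1.84. Slc1a3 was then lower (log2 change -0.90, adjusted p = 0.000389).

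With siNC 5 of 7 members were called, all lower than in tumor, while 25.8% of all windows were called and 9.03% were lower and 16.8% higher. Olig1 and Olig2 are among the 5 and had to differ to enter, so they cannot be set beside those shares. Olig1 differed by -1.49 (SE 0.33, adjusted p = 0.00417). Pdgfra differed by -0.64 (SE 0.17, adjusted p = 0.0103), Gfap by -0.68 (SE 0.19, adjusted p = 0.0175) and Mbp by -0.63 (SE 0.22, adjusted p = 0.0447). Olig2 was listed at 0 with siNC, and its fitted change of -3.37 (adjusted p = 6.25e-05) depends on the added count of 1. With equal chromosome totals, Pdgfra (adjusted p = 0.253), Gfap (adjusted p = 0.132) and Mbp (adjusted p = 0.169) lost their calls. The calls left were those of Olig1 and Olig2, which entered the unscaled test through their tumor libraries alone. Leaving out tumor replicate 1 ended the call of Pdgfra (adjusted p = 0.0555). Leaving out tumor replicate 2, tumor replicate 3 or siNC replicate 2 ended that of Gfap (adjusted p = 0.0707, 0.0698 and 0.0768). The call of Mbp held in 8 of 19 alternatives. It was lost without summits near the ends of neighbouring genes (log2 change -0.56, adjusted p = 0.0778). Irf8 (log2 change -0.53, adjusted p = 0.218) and Slc1a3 (0.34, adjusted p = 0.089) did not pass, though all siNC libraries were above all tumor libraries at Slc1a3, as in 26.4% of all windows. Slc1a3 was called higher in 4 of 19 alternatives, among them 50000 summits per list (log2 change 1, adjusted p = 0.0105). In that setting Irf8 was called lower (log2 change -1, adjusted p = 0.0431). The main fit also held untreated VDR, so the spread used in these tests includes that of its libraries. With tumor and siNC alone in the fit, an unplanned alternative, Slc1a3 was called higher (0.34, adjusted p = 0.037). Over all windows 4746 were then called, beside 3508 in the main fit. With equal chromosome totals Slc1a3 was at -0.22 (adjusted p = 0.341).

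Knockdown of Nfia or Nfib was compared with siNC to see whether marker windows moved with these factors. No member of 5 tested was called for siNfia, where 0.0% of 13547 windows were called although 1566 (11.6%) had an unadjusted p below 0.05. No member of 5 was called for siNfib either, where 0.827% of windows were called. The lowest adjusted p was that of Mbp in both, 0.414 with siNfia (0.31 higher, SE 0.14) and 0.294 with siNfib (0.33 higher, SE 0.14). At Slc1a3 all siNfib libraries lay above all siNC libraries by 0.21 on average (SE 0.11, adjusted p = 0.42), an order seen in 7.04% of all windows. These values do not show that the windows stayed the same.

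At the level of single sites, the windows of the 10 genes held 164 of the 270959 regions of 500 bp, of which 9 were occupied in all 21 libraries and 75 in 1 library only. A region was called gained when it was occupied in 3 of 3 libraries of the first group and 0 of 3 of the second, and lost in the reverse case, as a description without a test. Summits in the gaps between regions were not counted here. Between tumor and GNP 9 were gained and 2 lost of 63 that could have been, where the background over all regions was 6.35% gained and 5.88% lost. Of the 9 gained regions, 6 held a weaker summit in the whole lists of all 3 GNP libraries. One of the 9 lay inside Olig1 (chr16:91270759-91271258), and it was occupied in 0 of 3 GNP, 3 of 3 hyperplasia and 3 of 3 tumor libraries and in 0 of 12 VDR libraries. Another (chr11:102896548-102897047) lay 402 bp inside Gfap, and a region 4374 bp inside Slc1a3 (chr15:8706183-8706682) was in no whole list of GNP.

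Between hyperplasia and GNP 8 regions were gained and 3 lost of 61, with a background of 6.56% and 6.15%. Of the 8, 4 lay in the Mbp window and 3 in the Slc1a3 window. In the whole lists, 5 of the 8 held a summit in all 3 GNP libraries and 2 of the 3 lost ones held a summit in all 3 hyperplasia libraries. The Gfap region lost in hyperplasia (chr11:102892874-102893373) was among these, so its hyperplasia summits fell outside the kept ones but were not absent, and it was occupied in all 3 tumor libraries. Between tumor and hyperplasia 3 were gained and 1 lost of 66, with a background of 2.57% and 2.87%. Of these, 2 of the 3 gained and the lost one held a whole-list summit in all 3 libraries of the other group. The lost one lay in Pdgfra (chr5:75155558-75156057).

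In VDR cells no marker region was gained over tumor. Untreated VDR lost 18 of 57, where 28.2% of all regions were lost and 3.62% gained, and siNC lost 17 of 60, where 17.2% were lost and 7.42% gained. Of the regions lost with siNC, 5 lay at Olig2, 5 at Mbp, 2 each at Gfap, Olig1 and Pdgfra and 1 at Irf8, and 13 of the 17 held no summit even in the whole siNC lists. The Olig2 region just before its start (chr16:91225126-91225625), which overlaps the sequence printed above, reached rank 4673 in tumor and was absent from the whole lists of siNC. With siNfia 0 regions were gained or lost of 40, against 1.72% and 1.47% of all regions. With siNfib 1 was gained (chr15:8663106-8663605) and 1 lost (chr15:8684318-8684817) of 41, both in Slc1a3, against 5.38% and 3.5% of all regions.

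Wider marker lists that include these genes had few calls between stages, beside 4.0%, 6.24% and 0.192% of all windows called for hyperplasia against GNP, tumor against GNP and tumor against hyperplasia. Of 10 astrocyte genes tested none was called in any stage comparison. Of 10 oligodendrocyte genes 1 was higher and 1 lower in tumor than in GNP: Olig1, and the myelin regulator Myrf with 6, 8 and 6 against 9, 11 and 12 (log2 change -0.61, adjusted p = 0.0366). Of 8 immune genes, Spi1, which encodes PU.1, was lower in hyperplasia than in GNP, with 5, 6 and 5 against 8, 8 and 8 (log2 change -0.51, adjusted p = 0.0483). Of 8 endothelial and mural genes, the VEGF receptor Kdr was lower than its 6, 6 and 6 in GNP both in hyperplasia (4, 3 and 2, log2 change -0.84, adjusted p = 0.0469) and in tumor (2, 3 and 3, log2 change -0.95, adjusted p = 0.0267). Kdr entered that fit through its GNP libraries alone. Of 13 granule lineage genes, Neurod1 was lower in hyperplasia than in GNP (log2 change -0.63, adjusted p = 0.0192) and Pax6 was lower in tumor than in GNP (log2 change -0.54, adjusted p = 0.0494).

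In VDR cells most lists held called genes in both directions against tumor. The astrocyte list, and the granule lineage list in untreated VDR, moved mainly lower. More endothelial and mural genes were called lower than higher in both comparisons, and more immune genes higher than lower in untreated VDR. Of all windows 30.2% were lower and 20.7% higher in untreated VDR, and 9.03% were lower and 16.8% higher with siNC. Genes that entered the test through the group where they were highest had to differ, and their number is given with each list. List genes other than the members were not examined with equal chromosome totals, a setting that changed several member calls. Of all regions occupied in untreated VDR, 12.3% recurred in all 3 libraries. Of 10 oligodendrocyte genes, 4 were higher and 4 lower in untreated VDR, and the higher ones included the lineage factor Sox10 (15, 16 and 17 against 3, 3 and 4, log2 change 1.98, adjusted p = 9.48e-06) and Myrf (15, 17 and 17 against 6, 8 and 6, log2 change 1.19, adjusted p = 0.000106). Of those calls, 2 of the lower (Olig1 and Olig2) and 1 of the higher (Nkx2-2) entered that way, and the median log2 change of the 10 genes was 0.17, with -0.23 over all windows. With siNC Sox10 was again the higher one (7, 4 and 8, log2 change 0.72, adjusted p = 0.033), with 4 genes lower, again 2 of them by such entry, and a median of 0.21 beside 0.12 over all windows. Of 8 astrocyte genes, 6 were lower and 1 higher in untreated VDR and 5 lower and 0 higher with siNC. Of the lower ones 3 in each comparison, Gdf10, Hopx and Slc4a4, entered through tumor alone. The transporter Slc1a2 fell from 12, 17 and 16 to 5, 3 and 7 and to 6, 5 and 10. Of 9 immune genes, 5 were higher and 1 lower in untreated VDR and 3 were higher and 3 lower with siNC, and 2 of the 5 (Tmem119 and Trem2) entered through VDR libraries alone. With siNC 1 higher gene (Trem2) entered through VDR alone and 1 lower gene (Ptprc) through tumor alone. The summed level of the 13 immune genes was 47 to 53 in primary, 73 to 80 in untreated VDR and 38 to 48 in siRNA-treated libraries, with Csf1r and Itgam at 0 in every group except untreated VDR. Of 7 endothelial and mural genes, 4 were lower and 1 higher in untreated VDR and 3 lower and 1 higher with siNC, and Flt1 had 8, 7 and 8 in tumor, 1, 0 and 2 in untreated VDR and 2, 2 and 3 with siNC. Flt1 was the 1 gene of this list that entered through tumor alone. Of 13 granule lineage genes 11 were lower and 1 higher in untreated VDR, the higher one being the Hedgehog factor Gli2 with 379, 448 and 363 against 55, 43 and 47. With siNC 3 granule lineage genes were higher and 4 lower, and Neurod1, lower in both, entered through tumor alone. In untreated VDR and with siNC the median log2 change was -1.05 and -0.84 for the astrocyte list, 1.01 and -0.33 for the immune list, -0.49 and -0.51 for the endothelial and mural list and -1.02 and -0.15 for the granule lineage list. None of the 5 lists had a called gene with siNfia or siNfib.

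The windows whose counts followed each member most closely over the 21 libraries are given as a description, since all counts come from the same libraries and share their differences in strength and chromosome totals. By Pearson correlation of log2(kept summits + 1) over 13957 windows, Olig2 was followed by Zfp811 (r = 0.982) and the neurotrophin receptor Ntrk2 (0.981), and Olig1 by Arsj (0.895) and Aff3 (0.892). Pdgfra was followed by Gm35078 (0.969) and Pramel1 (0.956), Mbp by Maml3 (0.896) and Diaph1 (0.883), on the same chromosome as Mbp, and Slc1a3 by Adamts12 (0.929), on the same chromosome, and Kif3c (0.925). Gfap had the least close partners, Man2a2 (0.836) and Snx10 (0.827), and Irf8 was followed by Soga1 (0.918) and Eya2 (0.885).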

How the data were processed

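Peak summits of 21 ATAC-seq libraries were used as deposited, 1 list per library on mm10. Per the submitters' processing notes the authors used Bowtie2, Picard and MACS2; versions, parameters and read shifting are not given in the sources used here. The deposited score of a summit was read as a −log10 p or q value, which of the 2 is not stated, and served only to rank summits. Read depth is unknown, so no counting interval is given. The lists held 159720 to 279584 summits.

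Per library, the 100000 highest summits of the autosomes and sex chromosomes were retained and counted in each protein-coding gene body (RefSeq, GRCm38.p6) with 20 kb on each side. Windows with a mean of at least 3 were fitted as log2(count + 1) with limma 3.58.1 (trended variance, Benjamini-Hochberg over all windows), tested on simulated data beforehand. The simulated counts were Poisson draws without extra spread in any group. They therefore do not check calls where spread differs between groups, as with untreated VDR. Each fit held 9 libraries: the primary stages (14094 windows), tumor with untreated and siNC VDR (13597), or the siRNA groups (13547). Regions of 500 bp were merged greedily by rank.

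The members and lists were chosen with earlier results of these data known. All members were named in every comparison. List genes were named where called, at most 5 per list and comparison. For each member, the shared region and at most 2 changed regions per comparison, and its 2 most correlated windows beyond 2 Mb, could be named. Alternatives were 50000 summits, whole lists, a score of at least 10, gene body only, 50 kb flanks, occupied regions, equal chromosome totals, a pseudocount of 0.5, no filter, other sets of libraries in the fit, a replicate block and each library left out. Sequences of Olig1, Mbp and Csf1r were not analysed here, and those of Pdgfra, Cx3cr1 and Cldn5 were searched and are not printed.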

Additional observations from a re-analysis of the deposited data

How the results depend on the processing

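The number of members called in a comparison depended on the settings. For hyperplasia against GNP it was 0, and 3 with 50 kb flanks, 1 with occupied regions, 2 with equal chromosome totals and 2 without summits within 1 kb of another gene's end. For tumor against GNP it was 1, and 0 with 50000 summits, whole lists or a score of at least 10, and 2 with the gene body only, 50 kb flanks, occupied regions or equal chromosome totals. For tumor against hyperplasia it was 0, and 1 with occupied regions or without summits near other genes' ends. For untreated VDR against tumor it was 6, and 3 with 50000 summits, 2 with the gene body only and 3 with occupied regions. For siNC against tumor it was 5, and 3 with 50000 summits or whole lists, 1 with the gene body only and 2 with equal chromosome totals. The 3 with 50000 summits included Slc1a3, higher, and Irf8, lower, which were not called in the main setting. Fewer members entered the fits of VDR with tumor with 50000 summits (5 rather than 7), the gene body only (3), a score of at least 10 (6) or occupied regions (6), and the stage fits with 50000 summits (6) or the gene body only (5). Leaving out 1 library gave 0 to 1, 0 to 1, 0 to 0, 4 to 6 and 2 to 4 in these 5 comparisons, and 0 for siNfia and siNfib. Olig2 could not be tested without any one of the tumor libraries, since its mean was then under 3. The direction reversed in untreated VDR for Gfap with occupied regions (0.074) and for Mbp with equal chromosome totals (0.069), and the cause was not tested.

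Regions gained or lost numbered 11 for hyperplasia against GNP (3 with 50000 summits, 5 with whole lists, 11 to 15 with 1 library left out), 11 for tumor against GNP (6, 4, 11 to 17), 4 for tumor against hyperplasia (2 with 50000 summits, 4 to 7), 18 for untreated VDR (7 with 50000 summits, 32 with whole lists, 46 with a score of at least 10, 19 to 26), 17 for siNC (18 to 21), 0 for siNfia (0 to 2) and 2 for siNfib (4 with whole lists, 2 to 4). Over all windows the called number ranged from 130 to 979 around 564, 66 to 1532 around 880, 0 to 311 around 27, 3028 to 11404 around 6918, 1381 to 4746 around 3508, 0 to 26 around 0 and 0 to 240 around 112, in the order of the comparisons. Deviations of same-numbered libraries of different groups correlated weakly (-0.0463 to 0.0765), and replicate numbers were not taken as pairs. In the siRNA fit these correlations were -0.0121 to 0.0765, against -0.0815 to 0.0239 between libraries of different number. With a replicate block the members called numbered 0, 1, 0, 6, 4, 0 and 0, the call lost being that of Mbp with siNC (adjusted p = 0.0519), and the windows called numbered 318, 459, 3, 6841, 3424, 0 and 70. The unknown read depth limits every comparison, and the scores at rank 100000 show that untreated VDR lists reach into much weaker summits than the others.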
